A study of Mus musculus with 30 samples.

Results

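The 14-3-3 proteins are a family of small dimeric adaptors that bind other proteins at phosphorylated serines and threonines. They are among the abundant soluble proteins of brain, where they hold kinases, transcription factors, channels and regulators of cell death in an active, inactive or cytoplasmic state. Partners of 14-3-3 include kinases of the Ras pathway, and neurofibromin, the product of Nf1, turns Ras off. The family was taken as every probe set whose single gene symbol begins with Ywha or is Sfn, which gave 10 probe sets of 7 genes, out of 8252 named genes and 12488 probe sets on the array. Members were chosen by gene symbol, and the family was taken up because of a measured value already known, the low P28 signal of Ywhag probe set 102259_at relative to P20. That step is therefore described below with no test, and comparisons that contain P20 or P28 libraries share samples with it.

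Total RNA of hippocampus was measured on 30 Affymetrix arrays, 1 per pool of 2 male pups. Pups came from matings of C57BL/6 mice with animals heterozygous for Nf1, and liver was kept to determine genotype. Ages ran from P10, 10 days after birth, through P15, P18, P20 and P28 to P32. In this order the heterozygous groups (NF+/- in the labels) had 4, 4, 2, 2, 2 and 1 pools and the wild-type groups 3, 4, 2, 2, 2 and 2. The allele is in every cell of the animal, each value is a mean over a whole dissected hippocampus of 2 pups, and no treatment is named. Libraries are called here by the number and letter of their titles, which the labels do not explain. Nothing in the labels says which pools shared a litter, so p-values speak only of pool-to-pool spread, which may be partly technical. Array medians lay between 49.99 and 59.11 intensity units, and precision is limited by how many arrays a group has.

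The samples carried the markers of the labelled tissue. All 7 neuron markers and all 6 measured hippocampus markers passed the filter on dim probe sets, and the summed neuron markers lay between 7348 and 10517 intensity units in single libraries. Oligodendrocyte markers, of which 5 of 6 measured passed, summed to between 584 and 9099 units. Choroid plexus markers, of which 3 of 4 passed, ranged from 111 to 4893 units across libraries. Nf1 itself had 1 dim probe set below the filter, at 6.68 ± 4.31 intensity units in heterozygotes and 7.36 ± 4.92 in wild type (SD, n = 15 each), with single values between 1.43 and 19.1, so its signal did not check the genotype labels.

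Promoters of Ywhag, Ywhah and Ywhaq are shown because these genes hold the called members with an entry in the promoter table. They are the 250 bases before the annotated gene start in RefSeq (GRCm38.p6), written 5′ to 3′ on the gene's strand, and 5 of the 7 genes had an entry. Capitals mark matches on either strand to GGGCGG (the GC box), CCAAT (the CCAAT box), TATAAA (the TATA box) and TGACGTCA (the cyclic AMP response element). The Ywhag window is chr5:135934642-135934891 on the minus strand, the Ywhah window chr5:33018566-33018815 on the plus strand and the Ywhaq window chr12:21417437-21417686 on the minus strand.

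Ywhag: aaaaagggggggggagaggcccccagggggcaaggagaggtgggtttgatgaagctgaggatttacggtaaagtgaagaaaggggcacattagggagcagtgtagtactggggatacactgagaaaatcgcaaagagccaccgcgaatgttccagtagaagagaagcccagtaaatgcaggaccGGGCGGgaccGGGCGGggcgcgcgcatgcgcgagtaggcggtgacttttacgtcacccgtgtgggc
Ywhah: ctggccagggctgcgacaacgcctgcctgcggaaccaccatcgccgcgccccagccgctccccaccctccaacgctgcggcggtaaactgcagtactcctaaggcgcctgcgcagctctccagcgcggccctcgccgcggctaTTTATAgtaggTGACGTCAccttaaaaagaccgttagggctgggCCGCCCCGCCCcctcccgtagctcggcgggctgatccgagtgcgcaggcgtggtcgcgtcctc
Ywhaq: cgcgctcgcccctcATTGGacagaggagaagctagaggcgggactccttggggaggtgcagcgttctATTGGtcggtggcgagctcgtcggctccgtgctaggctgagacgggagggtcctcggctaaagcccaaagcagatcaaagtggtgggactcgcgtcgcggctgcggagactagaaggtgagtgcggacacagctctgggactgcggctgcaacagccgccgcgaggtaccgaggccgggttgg

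Ywhag held 2 GC boxes, Ywhaq 2 CCAAT boxes, and Ywhah 2 overlapping GC boxes, 1 TATA box and 1 cyclic AMP response element. Among 32851 promoter windows of the same length, 32.7% held a GC box, 33.8% a CCAAT box, 12.4% a TATA box and 1.55% a cyclic AMP response element. Ywhae had 2 GC boxes and Sfn 1 CCAAT box. These matches describe the letters in the windows, and binding was not measured.

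Of the 10 probe sets, 8 passed the filter that left out the dimmest 40% of probe sets, and 2 did not. Levels of different probe sets are not compared with each other, because each has its own probes. Over all 30 libraries 7 of the 8 tested probe sets varied far less than the other, which was that of the known step. Some of these 7 still differed between ages, as given below. Ywhag 95716_at averaged 4066 ± 421 intensity units (SD, n = 30), Ywhaz 97544_at 3165 ± 450, Ywhaq 97061_g_at 2681 ± 255 and Ywhah 97535_at 2565 ± 293. Ywhab 98053_at averaged 321 ± 43.9 units, Ywhae 160485_r_at 216 ± 29.7 and Ywhaq 97060_at 147 ± 18.9. The coefficient of variation of these 7 lay between 9.53% for Ywhaq 97061_g_at and 14.2% for Ywhaz. Ywhag 102259_at averaged 232 ± 137 units, a coefficient of variation of 58.8%, with single libraries between 30.5 and 483 units. This spread includes the known step and is a description only. The 2 dim probe sets had coefficients of 59.7% (Sfn 96704_at) and 62.4% (Ywhaq 93016_at).

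**Figure D1:**
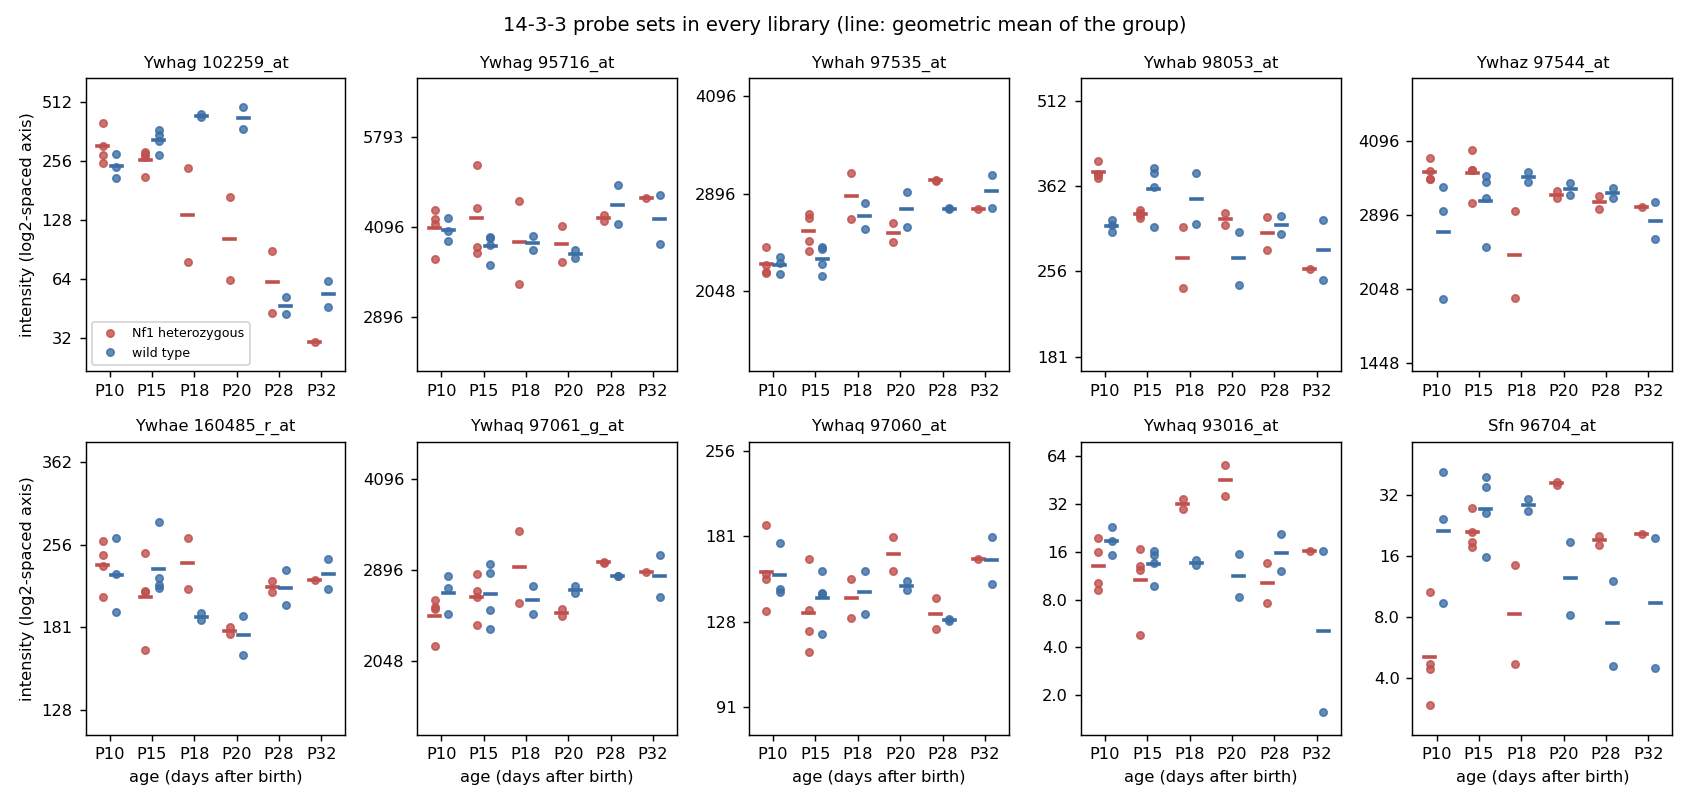
Intensity of each 14-3-3 probe set (log2-spaced vertical axes, different for each panel) at 6 ages, with 1 point per library and a line at each group's geometric mean, heterozygous in red and wild type in blue. Ywhag 102259_at spans 30.5 to 483 units while Ywhag 95716_at stays between 3286 and 5199 units, and the last 2 panels are the dim probe sets that were not tested.

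Ywhag encodes the gamma isoform, whose human counterpart is a known gene of childhood epilepsy, and lies on chromosome 5 (135908379 to 135934641, GRCm38.p6). Its 2 probe sets behaved differently. Probe set 102259_at read 276, 251, 307 and 402 units in heterozygous P10 libraries, against 210, 279 and 239 in wild-type P10 libraries. At P15 it read 277, 213, 270 and 284 in heterozygotes and 348, 325, 371 and 276 in wild type. These early groups overlapped between genotypes at both ages. At P18 it read 237 and 78.8 in heterozygotes, against 430 and 444 in wild type. At P20 it read 63.5 and 168 in heterozygotes, against 375 and 483 in wild type. At both ages every heterozygous library lay below every wild-type library, and the heterozygous libraries also differed widely from each other. Groups this small separate easily by chance, and the share of all probe sets that separated in this way was not counted. The P20 libraries are also those of the known step. At P28 it read 42.9 and 88.7 in heterozygotes and 42.3 and 51.9 in wild type, and at P32 it read 30.5 in the single heterozygous library and 46.2 and 62.4 in wild type. All P28 and P32 libraries lay below all P10 and P15 libraries, a separation whose share over all probe sets was also not counted.

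Ordered by mean log2 level, the groups of Ywhag 102259_at ran wild-type P18, wild-type P20, wild-type P15, heterozygous P10, heterozygous P15, wild-type P10, heterozygous P18, heterozygous P20, heterozygous P28, wild-type P32, wild-type P28 and heterozygous P32. Neighbours in this order had overlapping library values except at 2 places, between wild-type P20 and wild-type P15 and between wild-type P28 and the single heterozygous P32 library. The known step, P28 relative to P20, was -0.74 log2 units in heterozygotes and -3.18 in wild type, where P28 stood at 0.110 of the P20 level. In the same step the other Ywhag probe set, 95716_at, differed by 0.15 in heterozygotes and 0.28 in wild type.

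Ywhag 95716_at read between 3619 and 4380 units in heterozygous P10 libraries and between 3882 and 4249 in wild-type P10 libraries. It read 4291 and 4200 at heterozygous P28, 4589 at heterozygous P32, 4811 and 4144 at wild-type P28, and 4646 and 3837 at wild-type P32. Neighbouring groups in the order of its 12 means all overlapped. Over the 12 group means the Pearson correlation of the 2 Ywhag probe sets was -0.76, given as a description of groups that share arrays and scaling. The labels do not say which part of the transcript each probe set reads, so it is unknown here which of them follows the gene's total RNA.

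Maturation compared the mean of the P28 and P32 groups with P10 in each genotype, over the longest span of the series. In heterozygotes 4 of the 8 tested probe sets were called (limma adjusted p below 0.05, Benjamini-Hochberg over 7453 probe sets), 2 higher and 2 lower, where 36.5% of all tested probe sets were called. In wild type 2 of 8 were called, 1 higher and 1 lower, where 38.2% of all were called. The lower member in wild type, and 1 of the 2 lower members in heterozygotes, was the Ywhag probe set of the known step. P28 libraries of that step enter this comparison. The counts and medians of the 8 therefore include the value by which the family was taken up, and are given as a description. The median change of the 8 was -0.10 log2 units in heterozygotes, against -0.06 over all tested probe sets, and 0.03 in wild type, against -0.04. The median absolute change of the 8 was 0.24 in heterozygotes and 0.10 in wild type, against 0.33 for all tested probe sets in each. In bulk tissue, fewer cells of a type and less RNA per cell cannot be told apart.

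Ywhag 102259_at was lower at P28 and P32 than at P10 in both genotypes. In wild type its mean log2 level was higher at P15, P18 and P20 (8.36, 8.77 and 8.73) than at P10 (7.91). Its maturation change was -2.81 log2 units in heterozygotes (SE 0.31, limma adjusted p = 2.7e-07), to 0.143 of the P10 level. In wild type it was -2.27 (SE 0.30, limma adjusted p = 2.9e-06), to 0.208 of the P10 level. P28 libraries belong to the known step, so these maturation p-values are given as a description only. The P32 libraries were therefore also set alone against P10, a comparison chosen after seeing the data. The change was then -3.32 in heterozygotes (limma adjusted p = 1.5e-05), with 1 P32 library assumed to vary like the other groups, and -2.17 in wild type (limma adjusted p = 7.0e-05). In that comparison 2 of 8 members were called in heterozygotes, where 19.1% of all probe sets were, and 2 of 8 in wild type, where 33% were. Ywhag 95716_at had maturation changes of 0.11 in heterozygotes (95% interval -0.12 to 0.35) and 0.10 in wild type (-0.13 to 0.33), and neither was called. After quantile normalization the heterozygous change was 0.19 and called (limma adjusted p = 0.048).

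Ywhah, the eta isoform (chromosome 5, 33018816 to 33027966), is known as a brain 14-3-3 protein that activates the enzymes of catecholamine and serotonin synthesis. Its level at P28 and P32 was above that at P10 in both genotypes. Its probe set 97535_at read 2400, 2196, 2182 and 2245 units in heterozygous P10 libraries and 2313, 2261 and 2174 in wild-type P10 libraries. It read 3032 and 3044 at heterozygous P28, 2743 at heterozygous P32, 2738 and 2748 at wild-type P28, and 3094 and 2755 at wild-type P32. Every P28 and P32 library lay above every P10 library in either genotype. How many of all probe sets separated in this way was not counted, here or for the probe sets below. The maturation change was 0.36 log2 units in heterozygotes (SE 0.08, limma adjusted p = 8.4e-04), which is 1.28-fold, and 0.33 in wild type (SE 0.07, limma adjusted p = 0.0011), which is 1.26-fold. With P32 alone it was 0.28 in heterozygotes (limma adjusted p = 0.072, not called) and 0.38 in wild type (limma adjusted p = 0.0022, called).

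The order of the Ywhah groups placed the P10 groups of both genotypes and wild-type P15 lowest. All neighbours in that order overlapped except heterozygous P20 and wild-type P15. Across genotypes the medians by rising age were 2245, 2391, 2727, 2590, 2890 and 2755 units (n = 7, 8, 4, 4, 4 and 3). The highest single value, 3116 units, was that of heterozygous P18 library 1b.

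Ywhab encodes the beta isoform (chromosome 2, 163995197 to 164018588). Its probe set 98053_at read 374, 380, 400 and 379 units at heterozygous P10, against 309, 316 and 301 at wild-type P10. It read 319 and 279 at heterozygous P28 and 258 at heterozygous P32, and 298 and 321 at wild-type P28 and 315 and 247 at wild-type P32. Heterozygous P10 libraries lay above all later heterozygous libraries, while the wild-type P10 libraries lay inside the range of the wild-type P28 and P32 libraries. The maturation change was -0.46 log2 units in heterozygotes (SE 0.11, limma adjusted p = 0.0026, called) and -0.07 in wild type (SE 0.11, 95% interval -0.30 to 0.16, not called). With P32 alone the heterozygous change was -0.57 (limma adjusted p = 0.015).

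Ywhaq encodes the theta isoform (chromosome 12, 21390329 to 21417436) and had 3 probe sets. The brightest, 97061_g_at, read 2583, 2170, 2519 and 2495 units at heterozygous P10 and 2446, 2705 and 2829 at wild-type P10. At P28 it read 2979 and 2990 in heterozygotes and 2836 and 2828 in wild type, and at P32 it read 2871 in the heterozygous library and 2609 and 3067 in wild type. All 3 late heterozygous libraries lay above the 4 heterozygous P10 libraries, while the wild-type groups overlapped. The heterozygous maturation change was 0.26 log2 units (SE 0.10, limma adjusted p = 0.0457, called), close to the threshold, and the wild-type change was 0.09 (95% interval -0.11 to 0.30, not called). The heterozygous call was lost with no filter, after quantile normalization, without an intensity trend and with each of 11 of the 30 libraries left out in turn. With P32 alone the heterozygous change was 0.24 (limma adjusted p = 0.27, not called).

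Ywhaq 97060_at had maturation changes of -0.08 in heterozygotes and -0.09 in wild type, neither called. It read between 113 and 189 units over all libraries. The 3 Ywhaq probe sets had pairwise Pearson correlations of -0.34, -0.23 and 0.14 over the 12 group means. Ywhaz, the zeta isoform, needed in mice for the layering of hippocampal neurons (chromosome 15, 36770261 to 36802984), had changes of -0.22 in heterozygotes (95% interval -0.53 to 0.09) and 0.17 in wild type (-0.12 to 0.47). Ywhae, the epsilon isoform, which binds Ndel1 in migrating neurons (chromosome 11, 75732887 to 75765841), had changes of -0.11 in heterozygotes (-0.40 to 0.18) and -0.04 in wild type (-0.32 to 0.25). Neither gene was called in either genotype.

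**Figure D2:**
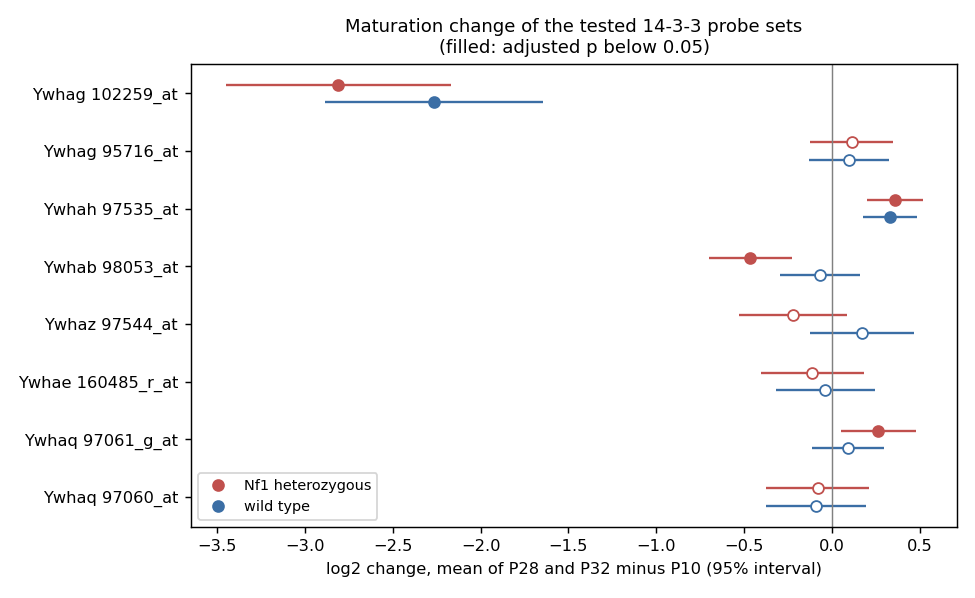
Log2 change between P10 and the mean of P28 and P32 for the 8 tested probe sets (points, with 95% intervals as bars), heterozygous in red above wild type in blue, filled where the adjusted p is below 0.05. Ywhag 102259_at lies at -2.81 and -2.27, Ywhah at 0.36 and 0.33, and Ywhab and Ywhaq 97061_g_at are filled in heterozygotes.

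The difference between the genotypes' maturation changes was tested directly. No member was called (limma, 0 of 8), and 0% of all probe sets were called. An unadjusted p below 0.05 was found for 1 of 8 members and for 508 of all 7453 probe sets. That member was Ywhab, with a difference of -0.40 log2 units (95% interval -0.73 to -0.07, limma adjusted p = 0.66). For Ywhag 102259_at the difference was -0.54 (-1.44 to 0.35), and for Ywhah it was 0.03 (-0.20 to 0.25). A call in heterozygotes only, as for Ywhab and Ywhaq 97061_g_at, was thus not shown to differ from wild type.

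Markers of other cell types moved over the same ages. Summed oligodendrocyte markers lay between 584 and 748 units at heterozygous P10 and between 7634 and 7996 at heterozygous P28 and P32, and between 822 and 944 at wild-type P10 and between 6300 and 7503 at wild-type P28 and P32. Summed astrocyte markers, all 6 measured past the filter, lay between 3431 and 3823 units at heterozygous P10 and between 5416 and 5567 at heterozygous P28 and P32, and between 3128 and 3329 at wild-type P10 and between 5704 and 6370 at wild-type P28 and P32. Summed neuron markers lay between 7368 and 8728 units at heterozygous P10 and between 8319 and 8500 at heterozygous P28 and P32, and between 7348 and 7974 at wild-type P10 and between 8032 and 9091 at wild-type P28 and P32. The part of these markers in the age changes of the 14-3-3 probe sets was not tested.

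Over all 6 ages together, an F test of any age difference called 2 of 8 members, where 50.8% of all probe sets were called. One was Ywhah (F = 10.02, limma adjusted p = 9.5e-05). The other was Ywhag 102259_at, for which this test contains the known step between P20 and P28, so its call is given as a description only. Steps between neighbouring ages, averaged over genotypes, called 0 of 8 members each with limma. From P10 to P15, 25.9% of all probe sets were called. There 0 of 8 members and 2739 of all 7453 probe sets had an unadjusted p below 0.05. From P15 to P18, where 3.84% of all were called, 1 of 8 members and 1642 of all probe sets did. The member was Ywhah, with a change of 0.20 (SE 0.06, limma adjusted p = 0.058). From P18 to P20 (0.0134% of all called) 0 of 8 members and 567 of all probe sets had an unadjusted p below 0.05. From P28 to P32 (0.0134% of all called) 1 of 8 members and 207 of all probe sets did. This member was Ywhaq 97060_at, with a change of 0.33 (limma adjusted p = 0.9995).

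The genotype comparison asked whether the Nf1 allele changes levels at a given age. Over all ages limma called 0 of 8 members and 0% of all probe sets. An unadjusted p below 0.05 was found for 1 of 8 members and for 698 of all 7453 probe sets. That member was Ywhag 102259_at, with -0.54 log2 units (SE 0.21, limma adjusted p = 0.44). For the other 7 the 95% intervals all lay between -0.13 and 0.24, and each of them included 0.

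At P10 limma called 0 of 8 members, where 0.0403% of all probe sets were called. There 2 of 8 members and 443 of all 7453 probe sets had an unadjusted p below 0.05. Ywhab differed by 0.31 log2 units (SE 0.11, limma adjusted p = 0.55), with every heterozygous library above every wild-type library. The share of all probe sets that separated in this way was not counted. Ywhaz read 3772, 3419, 3428 and 3549 units in heterozygotes and 1948, 3299 and 2953 in wild type, a difference of 0.41 (SE 0.14, limma adjusted p = 0.55) in which wild-type library 1b lay far below the rest. At P15 limma called 0 of 8 members and 0% of all. There 1 of 8 members and 440 of all 7453 probe sets had an unadjusted p below 0.05. The member was Ywhah (0.14, limma adjusted p = 0.83).

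At P18 limma called 2 of 8 members, both lower in heterozygotes, where 22.8% of all probe sets were called. Ywhag 102259_at differed by -1.68 log2 units (SE 0.39, limma adjusted p = 0.0052), to 0.312 of the wild-type level. Ywhaz read 2944 and 1963 units in heterozygotes, against 3381 and 3534 in wild type, a difference of -0.52 (SE 0.19, limma adjusted p = 0.0466). Leaving out heterozygous library 1b gave -0.88 for Ywhag 102259_at (limma adjusted p = 0.23) and -0.23 for Ywhaz (limma adjusted p = 0.57), and neither was then called. Leaving out the other heterozygous library, 1a, gave -2.47 for Ywhag 102259_at and -0.82 for Ywhaz, both called. The Ywhaz call held in 12 of the 30 fits with a library left out and in 3 of 10 other settings. Ywhag 95716_at differed by 0.00 (95% interval -0.30 to 0.30) at the same age.

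At P20 limma called 1 of 8 members, where 2.27% of all probe sets were called. This was Ywhag 102259_at, with -2.04 log2 units (SE 0.39, limma adjusted p = 0.0080), to 0.242 of the wild-type level. Its P20 libraries are those of the known step. Both heterozygous P20 titles carry the number 1 and both wild-type P20 titles the number 2, so at P20 genotype and title number cannot be told apart within the age. With the title number as a block over all ages the difference was -1.84 (limma adjusted p = 0.057, not called). Without heterozygous library 1a the difference was -1.34 and without wild-type library 2b it was -1.86, and neither was called. At P28 limma called 0 of 8 members (0.0134% of all called) and at P32 0 of 8 (0.0537% of all called). An unadjusted p below 0.05 was found for 0 of 8 members at either age. Of all probe sets, 385 had one at P28 and 509 at P32.

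**Figure D3:**
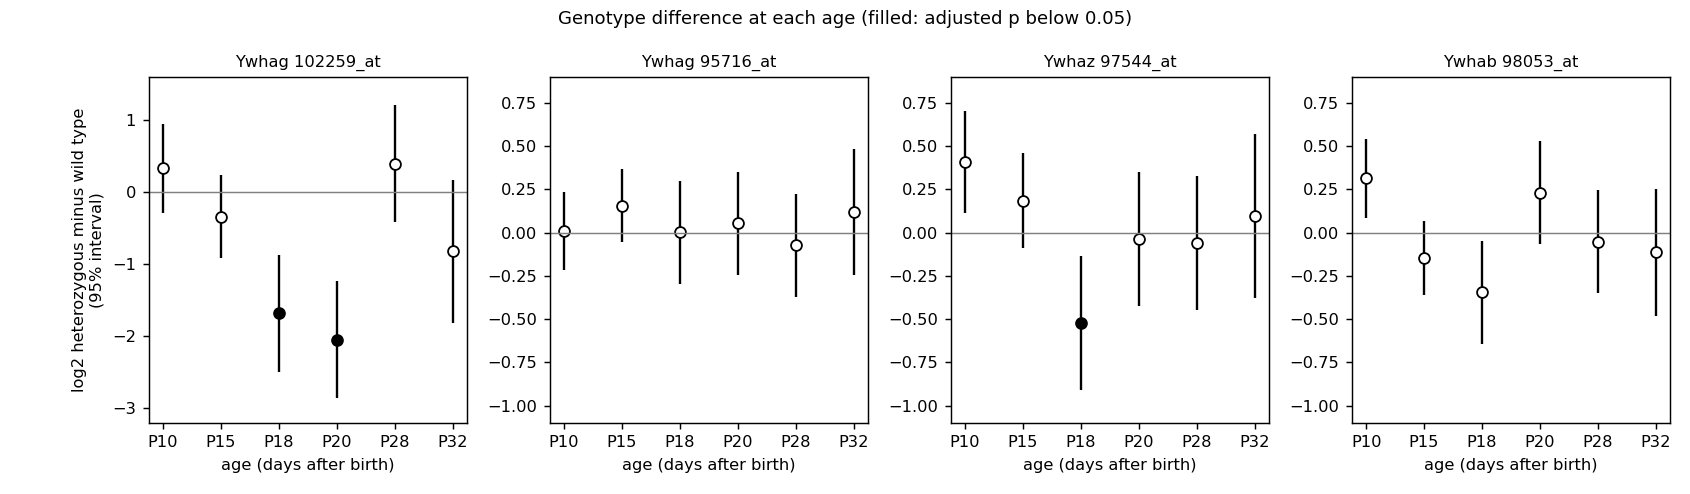
Heterozygous minus wild-type log2 difference at each age for both Ywhag probe sets, Ywhaz and Ywhab (points, with 95% intervals as bars, filled where the adjusted p is below 0.05; the first panel has its own vertical scale). Ywhag 102259_at is lower in heterozygotes at P18 (-1.68) and P20 (-2.04), Ywhaz at P18 (-0.52), and Ywhag 95716_at stays between -0.07 and 0.15.

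An F test of whether the genotype difference varied with age called 1 of 8 members, where 6.49% of all probe sets were called. This was Ywhag 102259_at (F = 7.57, limma adjusted p = 0.015), and the test contains the P20 and P28 libraries of the known step. Ywhab (F = 3.76, limma adjusted p = 0.092) and Ywhaz (F = 3.43, limma adjusted p = 0.11) were not called.

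A measure of RNA quality also differed between the genotypes at P18 and P20. The arrays carry Gapdh control probe sets for the 3′ and the 5′ part of the transcript, and a higher 3′ minus 5′ log2 signal is known to accompany shorter labelled RNA. It was -0.05 and 0.48 at heterozygous P18, against -0.26 and -0.23 at wild-type P18, and 0.00 and 0.17 at heterozygous P20, against -0.33 and -0.30 at wild-type P20. The heterozygous P18 library with 0.48, library 1b, also had an Actb 3′ minus 5′ value of 1.14, while the other libraries had values up to 0.56. At P28 the Gapdh value was 0.03 and -0.14 in heterozygotes and 0.15 and 0.05 in wild type. Both heterozygous libraries thus lay below both wild-type libraries, opposite to P18 and P20. At P32 it was 0.05 in the heterozygous library and 0.10 and -0.01 in wild type. At P10 and P15 the genotypes overlapped.

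With the Gapdh value as a covariate, the P18 difference of Ywhag 102259_at was -0.72 log2 units (limma adjusted p = 0.43), its P20 difference -1.20 (limma adjusted p = 0.19) and the P18 difference of Ywhaz -0.04 (limma adjusted p = 0.94). None of these genotype calls held in that fit. At P18 and P20 every heterozygous Gapdh value lay above every wild-type value. Genotype and this measure therefore cannot be told apart within either age. All 6 maturation calls held in it, with -2.75 in heterozygotes and -2.09 in wild type for Ywhag 102259_at and 0.35 and 0.31 for Ywhah. Some summed cell type markers also separated the genotypes at P18 and P20, where groups this small separate easily by chance.

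At P18 the sums of 3 lists lay higher in both heterozygous libraries. Astrocyte markers summed to 4973 and 5854 units in heterozygotes, against 4205 and 4470 in wild type, hippocampus markers to 2569 and 2627, against 1670 and 2036, and neuron markers to 9300 and 9397, against 8767 and 8944. Blood, choroid plexus, microglia and epithelium sums lay lower in both heterozygous P18 libraries, while oligodendrocyte and endothelium sums overlapped. Epithelium markers, none of which passed the filter, summed to 43.1 and 52.1 units in heterozygotes, against 59.9 and 63.3 in wild type. Blood markers (all 3 measured past the filter) summed to 1740 and 2952 units in heterozygotes, against 3635 and 4489 in wild type, choroid plexus markers to 1139 and 1583, against 1655 and 2287, and microglia markers (6 of 6 past it) to 1606 and 1761, against 1883 and 1911. At P20 astrocyte, oligodendrocyte, blood and epithelium sums lay higher and the neuron sum lower in heterozygotes. Hippocampus, microglia, endothelium and choroid plexus sums overlapped. Epithelium markers summed to 52.6 and 56.6 units in heterozygous P20 libraries, against 43.0 and 45.3 in wild type. Astrocyte markers summed to 5200 and 5832 units in heterozygotes, against 3694 and 3987 in wild type, and oligodendrocyte markers to 7955 and 9099, against 6325 and 6793. Blood markers summed to 2846 and 4646 units in heterozygous P20 libraries, against 2298 and 2442 in wild type, and neuron markers to 9056 and 9728, against 10449 and 10517. The part of these markers in the genotype differences was not tested.

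**Figure D4:**
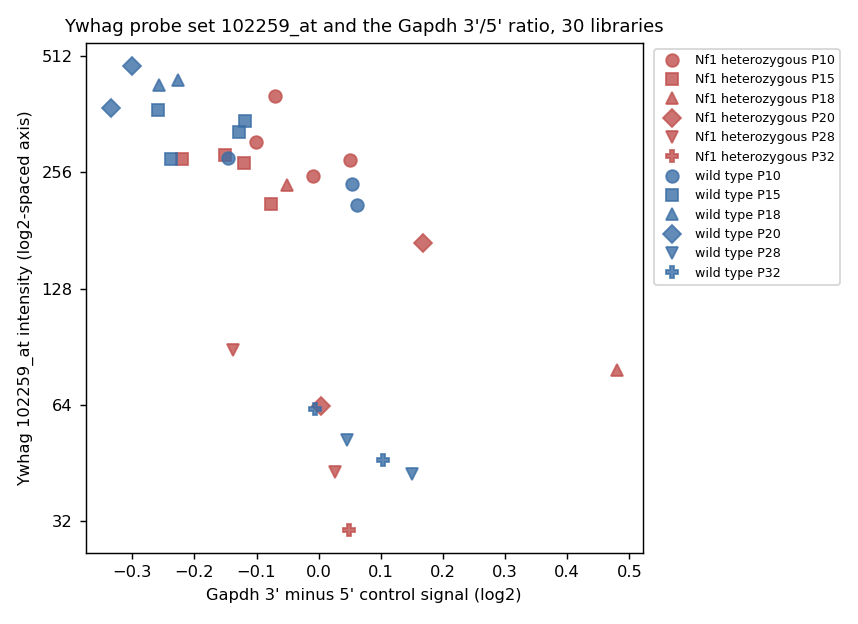
Ywhag 102259_at intensity (log2-spaced axis) against the Gapdh 3′ minus 5′ log2 signal in each of the 30 libraries, heterozygous in red and wild type in blue, with a symbol for each age. Wild-type P18 and P20 libraries lie at the upper left (375 to 483 units, -0.33 to -0.23), heterozygous P18 and P20 libraries lie to their right and below, and P28 and P32 libraries are low at values between -0.14 and 0.15.

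Sfn encodes 14-3-3 sigma, the epithelial isoform known for cell cycle arrest after DNA damage (chromosome 4, 133600556 to 133602168). Its probe set 96704_at was dim, between 2.92 and 41.5 units, and did not pass the filter. It read 10.6, 2.92, 4.43 and 4.65 at heterozygous P10, against 24.3, 41.5 and 9.33 at wild-type P10. Of 5 epithelial markers (Krt5, Krt14, Krt8, Krt18 and Epcam) 0 passed the filter, with summed levels between 40.3 and 104 units. With no filter Sfn was called in heterozygous maturation (1.97 log2 units, limma adjusted p = 0.014), while the wild-type change was -1.35 (limma adjusted p = 0.086).

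The third Ywhaq probe set, 93016_at, was also dim and below the filter, between 1.58 and 56.0 units. Its 4 highest values were those of the heterozygous P18 libraries (29.5 and 34.5 units) and the heterozygous P20 libraries (36.1 and 56.0), against 14.2 and 13.1 at wild-type P18 and 15.5 and 8.25 at wild-type P20. With no filter limma called neither difference (1.22 log2 units at P18, adjusted p = 0.28, and 1.99 at P20, adjusted p = 0.20).

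Genes known as 14-3-3 partners were described from a list of 57, of which 43 had a single-symbol probe set and 34 were tested. Each listed gene was represented by its brightest probe set on average, and any other probe sets of it were not compared. In heterozygous maturation 3 rose and 7 fell (29.4% called, against 36.5% of all tested probe sets), with a median of -0.21 log2 units against -0.06 over all tested probe sets. In wild-type maturation 4 rose and 10 fell (41.2% called, against 38.2% of all), with a median of -0.23 against -0.04. The 4 called partners with the largest absolute wild-type change all fell. The next called partners, Tiam1 and Kif1c, rose by 0.75 and 0.73 in wild type. Arhgef2, a protein bound to microtubules, had -0.51 in heterozygotes (limma adjusted p = 0.092, not called) and -1.20 in wild type (limma adjusted p = 2.2e-04). Map3k1, a kinase upstream of JNK, had -0.84 in heterozygotes and -0.81 in wild type, both called. Bad, a death-promoting protein held inactive by 14-3-3, had -0.57 in heterozygotes (limma adjusted p = 0.0416, close to the threshold) and -0.80 in wild type, both called. Nedd4l, a ubiquitin ligase of sodium channels, had -0.09 in heterozygotes (not called) and -0.79 in wild type (called). The difference in maturation between genotypes was 0.69 for Arhgef2 (limma adjusted p = 0.72) and 0.69 for Nedd4l (limma adjusted p = 0.38), neither called.

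Of the other partners, the transcription factor Foxo3 had -0.06 in heterozygotes and -0.14 in wild type, and the coactivator Yap1 had -0.31 in heterozygotes and -0.12 in wild type. Ndel1, a dynein partner bound by 14-3-3 epsilon, had -0.05 in heterozygotes and -0.09 in wild type, and Pafah1b1, which acts with it, had 0.09 in heterozygotes and 0.13 in wild type. None of these 4 was called in either genotype. Braf lay below the filter, between 5.71 and 23.7 units, and Foxo1, Cdc25b and Bcr are not analysed here for want of a single-symbol probe set.

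Kinases known to phosphorylate 14-3-3 docking sites or 14-3-3 proteins were described from a list of 28, of which 19 had a probe set and 16 were tested. Each kinase was likewise represented by its brightest probe set only. In heterozygous maturation 4 rose and 5 fell (56.3% called, against 36.5% of all tested probe sets). In wild-type maturation 4 rose and 4 fell (50.0% called, against 38.2% of all). Lats2, which marks Yap1 for 14-3-3 binding, rose by 1.62 log2 units in heterozygotes and 1.22 in wild type. Sgk1, a kinase induced by serum and glucocorticoids, rose by 0.73 in each genotype. Mark3, a kinase that creates 14-3-3 docking sites, had -0.73 in heterozygotes and -0.63 in wild type, both called. Akt2 had -0.50 in heterozygotes (limma adjusted p = 0.0498, close to the threshold) and -0.61 in wild type, both called. Akt1, which phosphorylates Bad and Foxo proteins, had -0.54 in heterozygotes and -0.57 in wild type, both called. Prkaca, the catalytic subunit of protein kinase A, had 0.27 in heterozygotes and 0.04 in wild type, neither called.

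Genes with the most similar pattern were found by Pearson correlation over the 12 group means of log2 values, a description with no test. Each likeness belongs to 1 probe set of the named gene. Several of these genes have other probe sets, which were compared only for Srsf1. Ywhah was closest to Plpbp, Pmpcb and Sucla2 (0.96, 0.96 and 0.95), and Ywhab to Gprasp1, Tradd and Bnip2 (0.94, 0.94 and 0.91). Ywhaz was closest to Alg3, Ikbkg and Amz2 (0.94, 0.91 and 0.85), Ywhaq 97061_g_at to Rab18, Cstf2 and Ap3d1 (0.93, 0.92 and 0.92), and Ywhae to Mrpl45, Zfp36l1 and Cd47 (0.89, 0.89 and 0.88). Ywhag 95716_at was closest to Ganab, Pmp22 and Tmem14c (0.88, 0.86 and 0.83), and Sfn to Pitpnb, St8sia5 and Rbck1 (0.84, 0.81 and 0.80). For Ywhag 102259_at, looked up after its values were seen, the closest were probe sets of the splicing factor gene Srsf1, of Fgf13 and of Cdk5r1, the activator of the neuronal kinase Cdk5 (0.97, 0.97 and 0.96). The other 3 probe sets of Srsf1 had correlations of 0.21, -0.40 and -0.34 with it, so that likeness belongs to 1 probe set of Srsf1 and not to the gene.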

How the data were processed

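The authors deposited linear intensities, with 1 value for each probe set on each array. The software behind them was not given in the sources used here. Trimming 2% from both ends left array means of 150.08 to 150.09, which shows a scaling of all arrays to 1 level, and no other normalization was added. Values below 1 (6295 values, 1.68%) were set to 1, and log2 was taken. The 66 control probe sets and the dimmest 40% of the others by mean log2 (below an intensity of 30.9) were left out, and 7453 were tested. Probe sets were named from the platform annotation where they had 1 symbol, and gene coordinates came from RefSeq (GRCm38.p6).

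Models with 1 mean per genotype and age were fitted to all 30 libraries in R 4.3.3 (limma 3.58.1, statmod 1.5.0) with an intensity trend. An additive model of age and genotype gave the overall genotype effect. P-values are two-sided. The computations were tested on simulated data. Named genes were all members, the 3 genes most like the brightest probe set of each member gene, the 4 called genes with the largest wild-type maturation change of each list, a preset group of partners and kinases, and Nf1. Tiam1 and Kif1c were named in addition, as the next called partners by absolute wild-type change. The members and lists were chosen with earlier results of these data known.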

Additional observations from a re-analysis of the deposited data

Results flagged for a closer look

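Ywhae 160485_r_at in wild-type P15 library 2d read 282 units, far above the other 3 libraries of its group at 213, 216 and 223 units. It was the only such value among 30 checks of member probe sets in groups of 4, and chance gives about 1 in 20 such groups.

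The genotype difference of Ywhag 102259_at varied with age (F = 7.57, limma adjusted p = 0.015). It lay at 0.33 log2 units at P10, -0.34 at P15, -1.68 at P18, -2.04 at P20, 0.40 at P28 and -0.82 at P32. The test shares libraries with the step by which the family was taken up, and with the Gapdh 3′ minus 5′ value as a covariate 0 of 8 members were called in it.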

How the results depend on the processing

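The counts of members called were repeated under 11 other settings and with each library left out in turn, except that genotype at P32 has no value without its 1 heterozygous library. Single genotype changes were repeated under 10 other settings, the P20 to P28 differences under 2, and the P32 comparisons and the partner and kinase lists under none. No change of direction was seen among the called members. The counts called in maturation of each genotype, in the difference in maturation, over all ages by genotype, and by genotype at P10, P15, P28 and P32 stayed within 1.5 times of those reported, with 3 to 5 members called in heterozygous and 2 in wild-type maturation. The cause of the moves below was not tested. Any age difference called 4 members with array weights and 2 to 4 with a library left out (4 without heterozygous P15 library 2d). The step from P10 to P15 called 1 with no filter (Sfn). The step from P15 to P18 called 1 with the lowest 60% left out and 0 to 3 with a library left out (1 without heterozygous P15 library 2d, 3 without heterozygous P18 library 1a). The interaction called 2 with no filter, 0 with the title code as a replicate block, 0 with the Gapdh covariate and 1 to 2 with a library left out (2 without heterozygous P18 library 1a). Genotype at P18 called 1 with no filter, 1 after quantile normalization, 1 without the intensity trend, and 0 with array weights, with the replicate block, with the Gapdh covariate and with the compared groups only. With a library left out it called 0 to 3, with 0 without heterozygous P18 library 1b and 3 without library 1a. Genotype at P20 called 0 with the replicate block, with the title number as a block, with the Gapdh covariate and with the compared groups only, and 0 to 1 with a library left out (0 without heterozygous library 1a or wild-type library 2b). Under the replicate block the P18 difference of Ywhag 102259_at was -1.94, that of Ywhaz -0.05, and the P20 difference of Ywhag 102259_at -1.64, none called. Residuals of same-coded libraries of the 2 genotypes correlated between -0.18 and 0.13 at P10, P15 and P28. At P28 the 2 correlations carry the same information, because each group has 2 libraries. At P18 and P20 the genotypes share no code, so pairing could not be checked there. With 32 added to each value before the logarithm, the P28 minus P20 difference of Ywhag 102259_at in wild type was -2.54. Groups of 1 to 4 pools and the dim signal of Sfn and Ywhaq 93016_at limit what could be seen.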
